A study of Mus musculus with 16 samples.

Results

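The cytochrome P450 genes of families 1 to 4 were followed in mouse kidneys after cisplatin, a platinum drug that injures the renal tubule. Members were all genes whose name is Cyp, a digit from 1 to 4 and a letter, pseudogenes left out, with a level of at least 1 TPM in at least 4 of the 16 libraries. TPM is a gene's read count per exon length, with every library brought to the same total, so levels can be compared between genes. Of 82 genes with such a name among 46078 genes of the table, 31 met the minimum, in 15 subfamilies, and 15014 genes of any kind entered the tests. Of these 31 genes, 24 reached 1 TPM in all 16 libraries and 7 did not (Cyp2b10, Cyp2c44, Cyp2d12, Cyp2j7, Cyp2r1, Cyp3a13 and Cyp4v3).

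The study asked, per its title and design text, how kidneys respond to cisplatin with and without preconditioning, and has 4 groups of 4 libraries. All were total RNA, freed of ribosomal RNA, from perfused kidneys of C57BL/6 mice aged 20 weeks, taken 72 h after an intraperitoneal injection. BL_vehicle mice had no preconditioning and were injected with 0.9% saline, and BL_cisplatin mice had no preconditioning and were injected with cisplatin. CR_cisplatin mice were on calorie restriction for 4 weeks before cisplatin, and HP_cisplatin mice breathed low oxygen for 2, 4 and 8 h on 3 following days, the last of them 1 h or more before cisplatin. No preconditioned group with saline was analysed here, so an effect of preconditioning alone cannot be told apart from its effect on the response to cisplatin. The labels give neither sex nor cisplatin dose and do not say that libraries came from separate mice, so the p-values speak only of the spread among these libraries, part of which may be technical.

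Cytochrome P450 enzymes are haem proteins of the endoplasmic reticulum that insert an oxygen atom into lipids, steroids, drugs and other foreign compounds, using electrons passed on by the reductase Por. Families 1 to 3 act mainly on foreign compounds and steroids and family 4 on fatty acids, while several members of both Cyp2 and Cyp4 subfamilies convert arachidonic acid into signalling lipids that act on renal vessels and salt transport. In the kidney most of them are made in the proximal tubule, the segment in which cisplatin accumulates.

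Read counts recovered from the TPM values came to between 49174117 and 62594474 per library. The marker check matched the labelled tissue: 12 proximal tubule genes summed to between 4562 and 5391 TPM in BL_vehicle. In BL_cisplatin the same sum was 384 to 608 TPM, and all 12 genes were lower, while the injured-tubule genes Havcr1, Lcn2 and Krt20 summed to 1019 to 1100 TPM against 0.734 to 2.92 TPM. The summed proximal tubule level in CR_cisplatin was 4574 to 5125 TPM, and in HP_cisplatin libraries 1 to 4 it was 629, 2921, 1672 and 4572 TPM. In bulk tissue, fewer cells of a type and less RNA per cell cannot be told apart, which bears on every member made in that segment. All BL_cisplatin libraries and CR_cisplatin 1 share 1 title prefix and the other 11 libraries share another, so prefix and group cannot be told apart for BL_cisplatin against BL_vehicle or HP_cisplatin. The labels do not say what the prefix stands for. In the 31 genes HP_cisplatin 4 lay close to CR_cisplatin 4, with ratios of their TPM between 0.871 and 1.21, although their labels put them in different groups. Levels of members in HP_cisplatin are therefore mostly given library by library, and counts of called members with and without that library.

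In vehicle-injected kidneys 4 genes carried most of these transcripts: Cyp4b1, Cyp2e1, Cyp2j5 and Cyp2a4 held between 74.6% and 81.1% of the summed level of the 31 genes. The sum was 2989 to 3729 TPM in BL_vehicle and 937 to 1404 TPM in BL_cisplatin, and the groups did not overlap. It stood at 2917 to 3309 TPM in CR_cisplatin and at 1309, 2929, 2312 and 3057 TPM in HP_cisplatin 1 to 4. The Cyp4a subfamily, made up of fatty acid omega-hydroxylases, took 3.71% to 6.58% of the sum in BL_vehicle and 44.3% to 62.6% in BL_cisplatin. Its share was 3.76% to 5.65% in CR_cisplatin and 54.8%, 46.1%, 56.0% and 5.65% in HP_cisplatin 1 to 4. HP_cisplatin 2 thus had a Cyp4a share within the BL_cisplatin range at a total within the CR_cisplatin range, and HP_cisplatin 3 a like share at a total between the 2 ranges. Cyp4b1, Cyp2e1, Cyp2j5 and Cyp2a4 together held 25.7% to 38.3% of the sum in BL_cisplatin and 32.01%, 40.2%, 31.2% and 78.7% in HP_cisplatin 1 to 4.

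**Figure D1:**
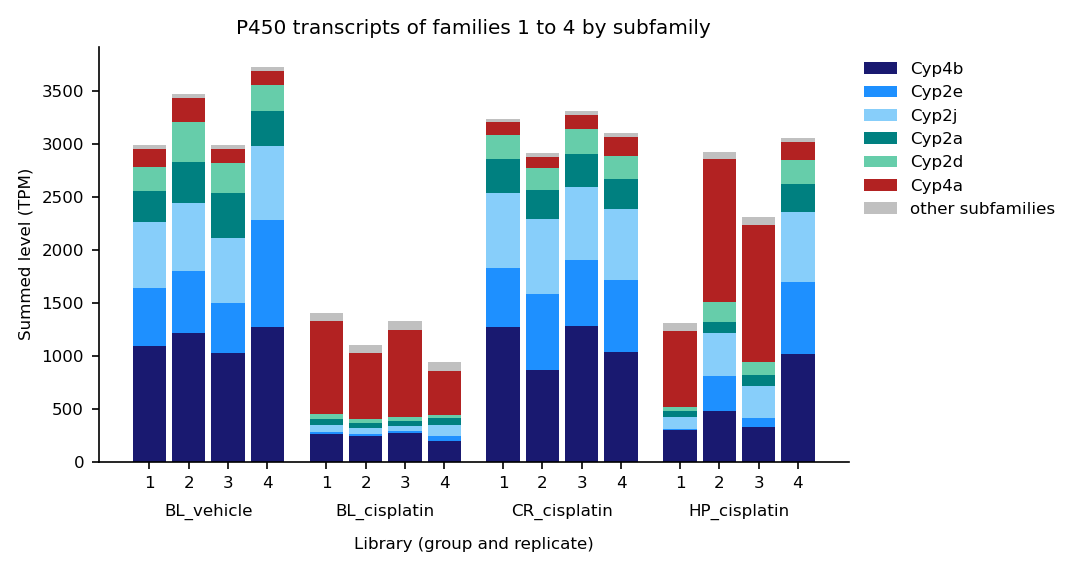
Stacked bars give the summed TPM (y axis) of the P450 genes of families 1 to 4 in each of the 16 libraries (x axis), by subfamily. Cyp4a (red) takes 44.3% to 62.6% of the sum in BL_cisplatin and 3.71% to 6.58% in BL_vehicle, and HP_cisplatin 2 reaches 2929 TPM with a large Cyp4a part.

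Cisplatin lowered 15 of the 31 genes and raised 12 at an adjusted p under 0.05, in limma's moderated test on log2(TPM + 1) with Benjamini-Hochberg adjustment over all 15014 genes. Over all genes tested 28.8% were called lower and 38.0% higher in the same comparison, so the share of members called higher was near the background and the share called lower above it. The median difference was -0.08 over the 31 genes and 0.08 over all genes, on the log2(TPM + 1) scale. Members past a 2-fold change on this scale numbered 14 lower and 8 higher. The share of all genes past that change was not counted, so these numbers have no background beside them. With the rest rescaled after leaving out haemoglobin, mitochondrial and the 10 most abundant genes, 7223 genes were called higher and 3516 lower against 5710 and 4322 as deposited, and the median of all genes moved to 0.24. No called member changed direction under that scaling, and 1 call was lost, that of Cyp2u1. With the title prefix as a term, a fit whose prefix estimate rests on CR_cisplatin 1 against the other 3 libraries of its group, 11 genes were called lower and 4 higher (Cyp3a13, Cyp4a14, Cyp4f16 and Cyp4f17). Calls fell over the whole table in that fit, to 1929 of all genes higher and 1484 lower, so the loss was not particular to the members. The 12 calls lost there were those of Cyp1b1, Cyp2d22, Cyp2e1, Cyp2j6, Cyp2j9, Cyp2s1, Cyp2u1, Cyp4a10, Cyp4a12a, Cyp4a31, Cyp4a32 and Cyp4v3, and none changed sign.

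Among the genes that fell, Cyp4b1, which oxidises fatty acids and activates furan toxins, had the highest level. Its TPM in BL_vehicle 1 to 4 was 1095, 1216, 1021 and 1271, and in BL_cisplatin 1 to 4 it was 262, 241, 267 and 195. Every cisplatin library thus lay far under the lowest vehicle library, and the mean was 4.77-fold lower (log2 difference -2.25, SE 0.30, limma adjusted p = 5.08e-05). Cyp2e1, the ethanol- and paracetamol-oxidising enzyme, stood at 548, 584, 479 and 1009 TPM in BL_vehicle 1 to 4. In BL_cisplatin it stood at 17.2, 17.6, 19.2 and 47.4 TPM. The groups did not overlap, and the mean was 25.8-fold lower (log2 difference -4.71, SE 0.79, limma adjusted p = 1.73e-04). BL_cisplatin 4 held more Cyp2e1 than the other 3 libraries of its group, and BL_vehicle 4 more than the other 3 of its own. With the title prefix as a term the call of Cyp2e1 was lost, at a log2 difference of -4.45 and a limma adjusted p of 0.0556.

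Both Cyp2a members fell. Cyp2a4, a steroid hydroxylase, read 261, 328, 355 and 242 TPM in BL_vehicle and 41.8, 36.3, 34.8 and 49.3 TPM in BL_cisplatin, which is 7.31-fold lower in the mean (log2 difference -2.84, SE 0.36, limma adjusted p = 4.91e-05). Cyp2a5, a coumarin hydroxylase, had 64.5 ± 22.6 TPM (mean ± SD, 4 libraries) in BL_vehicle and 11.8 ± 1.47 TPM in BL_cisplatin, with no overlap of the groups. The longest Cyp2a4 transcript shares 36.1% of its windows of 50 bases with Cyp2a5, so the authors' counting could split reads between the pair and each one's level is uncertain. Their sum was 297 to 423 TPM in BL_vehicle against 45.8 to 59.4 TPM in BL_cisplatin. This sum can also shift with the split, since TPM divides by exon length and the longest transcripts of the pair differ in length. Reads left out because they match both genes would lower it.

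Of the 4 Cyp2d genes, 3 fell and 1 rose. Cyp2d12 showed the largest fall of the 31 genes: it read 71.3, 207, 87.8 and 65.3 TPM in BL_vehicle 1 to 4 and 0.841, 0.778, 1.10 and 0.777 TPM in BL_cisplatin 1 to 4. The mean TPM was 123-fold lower, with a BL_cisplatin mean of 0.875 TPM and only 1 library of that group at 1 TPM or more. This ratio of mean TPM is larger than the change on the log2(TPM + 1) scale (log2 difference -5.70, SE 0.76, limma adjusted p = 5.24e-05). BL_vehicle 2 was the high library of its group. Cyp2d26 read 53.4, 59.7, 63.1 and 47.98 TPM in BL_vehicle and 1.82, 1.14, 2.05 and 2.29 TPM in BL_cisplatin. That is a log2 difference of -4.35 (SE 0.63), with every cisplatin library far under every vehicle library. Cyp2d9, a testosterone hydroxylase, read 93.8, 104, 122 and 122 TPM in BL_vehicle and 21.6, 19.2, 16.2 and 13.98 TPM in BL_cisplatin, again without overlap (log2 difference -2.58, SE 0.35). The longest Cyp2d9 transcript shares 28.3% of its windows of 50 bases with other P450 genes, 10.7% with Cyp2d12. A pseudogene on the same strand overlaps 186 exonic bases of Cyp2d9, so the level of this gene is uncertain. Cyp2d22, often named as the mouse counterpart of the main human CYP2D enzyme, went the other way, with 8.04, 8.01, 9.64 and 7.24 TPM in BL_vehicle and 18.1, 14.6, 19.00 and 12.8 TPM in BL_cisplatin. The groups did not overlap, but the call of Cyp2d22 (log2 difference 0.88, SE 0.36, limma adjusted p = 0.0434) was lost without BL_cisplatin 1, 2 or 3 or without any 1 of the 4 BL_vehicle libraries, at adjusted p between 0.0529 and 0.0972.

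Of the 6 Cyp2j genes, a subfamily whose members turn arachidonic acid into epoxides, 5 fell and 1 rose. Cyp2j5, the most abundant of them and a known kidney epoxygenase, read 450.2, 463, 449 and 502 TPM in BL_vehicle 1 to 4 and 39.2, 29.6, 24.7 and 66.9 TPM in BL_cisplatin 1 to 4. The mean was 11.6-fold lower (log2 difference -3.61, SE 0.44, limma adjusted p = 4.38e-05), and BL_cisplatin 4 was the highest of its group. Cyp2j11 read 84.2, 93.1, 90.5 and 76.04 TPM in BL_vehicle and 3.73, 3.43, 2.45 and 8.41 TPM in BL_cisplatin, a log2 difference of -4.09 (SE 0.61). The same library, BL_cisplatin 4, was highest for Cyp2j11 too, and no cisplatin library reached the vehicle range. Cyp2j13 fell by 3.01 on the log2 scale, Cyp2j7 by 1.36 and Cyp2j9 by 1.15, all without overlap of the groups. Cyp2j7 was under 1 TPM in all 4 BL_cisplatin libraries and reached the minimum through the other groups, so part of its difference was set by the minimum itself. Cyp2j6 alone of this subfamily was called higher: it read 9.92, 10.5, 11.7 and 10.3 TPM in BL_vehicle and 16.5, 15.7, 16.7 and 15.4 TPM in BL_cisplatin (log2 difference 0.56, SE 0.14, limma adjusted p = 0.0035). The groups of Cyp2j6 did not overlap.

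The remaining genes that fell were Cyp2c44, Cyp4a12a and Cyp2u1. Cyp2c44, an arachidonic acid epoxygenase of the kidney, read 7.39, 7.39, 7.79 and 7.38 TPM in BL_vehicle and 1.37, 0.844, 0.905 and 1.48 TPM in BL_cisplatin. The 4 vehicle libraries of Cyp2c44 lay close together and far above the cisplatin libraries (log2 difference -1.99, SE 0.32, limma adjusted p = 1.15e-04). Cyp4a12a, which hydroxylates arachidonic acid and is known as an androgen-dependent gene of mouse kidney, read 11.8, 8.58, 3.87 and 49.8 TPM in BL_vehicle and 2.93, 3.13, 2.34 and 2.75 TPM in BL_cisplatin. Its vehicle libraries spread widely, with BL_vehicle 4 far above the others, yet the lowest vehicle library was still above the highest cisplatin library (log2 difference -1.80, SE 0.56, limma adjusted p = 0.0108). Cyp2u1, a fatty acid hydroxylase, read 3.82, 3.16, 3.38 and 2.81 TPM in BL_vehicle and 2.09, 2.35, 2.12 and 3.37 TPM in BL_cisplatin. Its groups overlapped through BL_cisplatin 4 (log2 difference -0.31, limma adjusted p = 0.0203), and the call was also lost without BL_cisplatin 1 or 3 or BL_vehicle 1, at adjusted p between 0.0639 and 0.0685. An antisense gene overlaps 548 of its exonic bases at a mean of 0.0796 TPM, and whether the authors' counting used strand is not given in the sources used here.

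**Figure D2:**
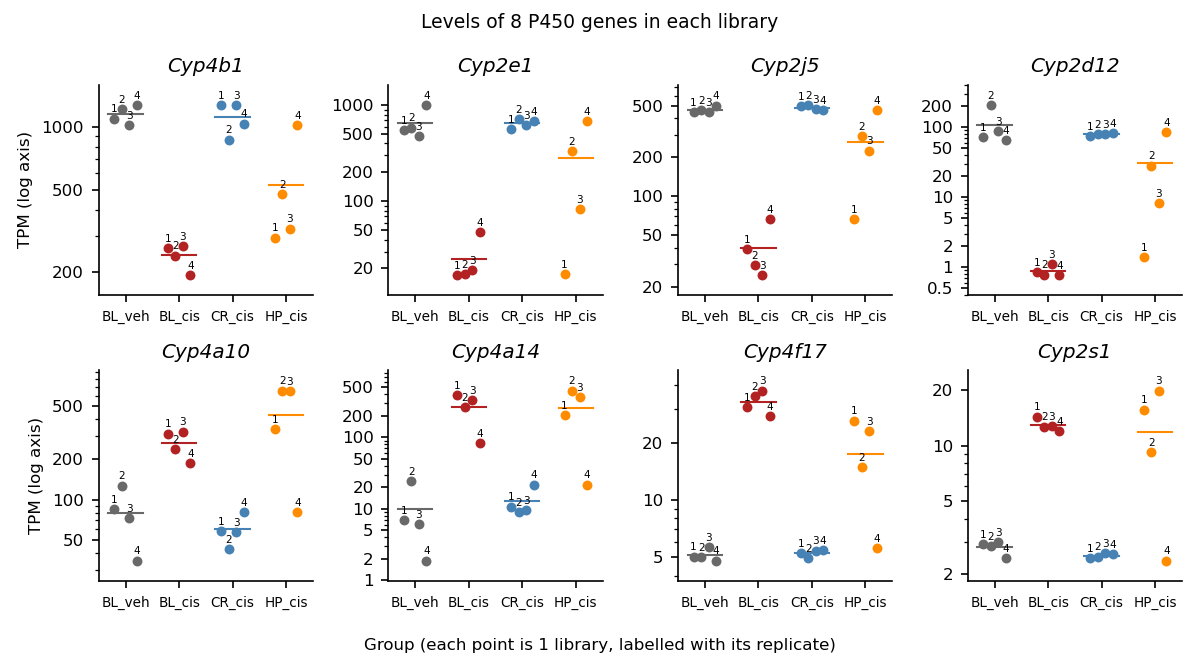
TPM on a log axis (y) of 8 P450 genes in each group (x). Points are single libraries labelled with their replicate and bars are group means. Cyp4b1, Cyp2e1, Cyp2j5 and Cyp2d12 are low and Cyp4a10, Cyp4a14, Cyp4f17 and Cyp2s1 high in BL_cisplatin against BL_vehicle and CR_cisplatin, while the HP_cisplatin libraries are spread over the range.

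The genes that rose after cisplatin were led by Cyp4a, in which 4 of 6 genes were called higher. Cyp4a14, a classic target of the fatty acid receptor PPARalpha, read 6.98, 24.3, 6.04 and 1.89 TPM in BL_vehicle 1 to 4 and 389, 262, 336 and 82.4 TPM in BL_cisplatin 1 to 4. The mean was 27.3-fold higher (log2 difference 4.86, SE 0.85, limma adjusted p = 2.27e-04), with BL_cisplatin 4 the lowest of its group but above every vehicle library. Cyp4a10, a second PPARalpha target, read 85.3, 127, 72.5 and 35.04 TPM in BL_vehicle and 312, 239.8, 323 and 187 TPM in BL_cisplatin. All 4 cisplatin libraries were above all 4 vehicle libraries (log2 difference 1.82, SE 0.55, limma adjusted p = 0.0093). Cyp4a31 rose from 47.2 ± 10.8 to 125 ± 21.6 TPM (mean ± SD, 4 libraries). Cyp4a32 read 2.92, 4.03, 2.56 and 1.17 TPM in BL_vehicle and 15.5, 11.9, 17.3 and 9.23 TPM in BL_cisplatin, again without overlap (log2 difference 2.01, SE 0.46). The last member, Cyp4a12b, was not called: it read 6.08, 7.29, 3.20 and 16.1 TPM in BL_vehicle and 12.3, 10.6, 7.67 and 11.3 TPM in BL_cisplatin, and BL_vehicle 4 was the highest of all 8. Summed over the subfamily, Cyp4a stood at 130.5 to 229 TPM in BL_vehicle and at 415 to 880 TPM in BL_cisplatin.

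Near-identical copies limit what can be said of single Cyp4a genes. In the longest transcripts, Cyp4a12a shares 48.9% of its windows of 50 bases with Cyp4a12b, and Cyp4a32 shares 34.8% with Cyp4a10. Cyp4a31 shares 15.5% of its windows with Cyp4a32. Cyp4a14 shares 0.25% of its windows with other P450 genes, all with a pseudogene. The sum of Cyp4a10, Cyp4a14, Cyp4a31 and Cyp4a32 was 72.5 to 213 TPM in BL_vehicle and 401 to 864 TPM in BL_cisplatin. Over all 31 genes, 20 share under 10% of their windows with another P450 gene and 8 share over 25%.

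In the Cyp4f subfamily, which hydroxylates leukotrienes and other fatty acids, 2 of 3 genes rose. Cyp4f17 read 5.04, 5.03, 5.64 and 4.80 TPM in BL_vehicle and 30.8, 34.95, 37.4 and 27.5 TPM in BL_cisplatin. Its groups were far apart against a small spread within each (log2 difference 2.45, SE 0.31 from the fit of all 16 libraries, limma adjusted p = 4.68e-05). Cyp4f16 rose from 1.88 ± 0.192 to 7.18 ± 0.59 TPM, and it shares 24.8% of its windows with Cyp4f37, a gene under the minimum. Cyp4f13 was not called, with 9.82, 9.77, 9.94 and 9.51 TPM in BL_vehicle and 9.89, 8.33, 9.20 and 9.35 TPM in BL_cisplatin. Its log2 difference of -0.08 has a 95% interval from -0.25 to 0.09, and the sign turns to a difference of 0.06 when the most abundant genes are left out of the scaling, and is also positive with the title prefix as a term or with voom.

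Several genes outside these subfamilies also rose. Cyp2s1, an epithelial P450 known to be induced through the dioxin receptor AhR, read 2.89, 2.84, 2.97 and 2.44 TPM in BL_vehicle and 14.4, 12.7, 12.7 and 11.9 TPM in BL_cisplatin. Every cisplatin library was above every vehicle library (log2 difference 1.88, SE 0.38, limma adjusted p = 6.98e-04). Cyp3a13, of the drug-metabolising Cyp3a subfamily, read 0.141, 0.231, 0.0973 and 0.118 TPM in BL_vehicle and 2.54, 2.17, 2.22 and 2.09 TPM in BL_cisplatin. It reached 1 TPM only in the 4 BL_cisplatin libraries and in 2 of HP_cisplatin, so part of its difference was set by the minimum itself. The same holds for Cyp4v3, a fatty acid hydroxylase with 0.832, 0.835, 1.02 and 0.709 TPM in BL_vehicle and 1.54, 1.48, 1.35 and 1.80 TPM in BL_cisplatin, where only BL_vehicle 3 reached 1 TPM among vehicle libraries. Cyp1b1, an AhR target that oxidises oestrogens, read 5.64, 6.07, 7.49 and 5.70 TPM in BL_vehicle and 7.52, 8.98, 7.54 and 10.2 TPM in BL_cisplatin. Its groups barely missed each other, and its call (log2 difference 0.40, SE 0.15, limma adjusted p = 0.0304) was lost without BL_cisplatin 2 or 4 or without BL_vehicle 1, 2 or 4, at adjusted p between 0.0591 and 0.0917.

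Cyp2r1 and Cyp2b10 were not called. Cyp2r1, a vitamin D hydroxylase, read 0.827, 0.867, 0.72 and 0.708 TPM in BL_vehicle and 0.949, 1.13, 0.898 and 1.61 TPM in BL_cisplatin, a log2 difference of 0.26 with a 95% interval from -0.08 to 0.60. Cyp2b10, the gene best known as induced by phenobarbital through the receptor CAR (Nr1i3), read 0.151, 0.219, 0.238 and 1.18 TPM in BL_vehicle 1 to 4 and 0.527, 0.557, 0.842 and 7.67 TPM in BL_cisplatin 1 to 4. In HP_cisplatin 1 to 4 it read 0.72, 7.57, 5.92 and 0.999 TPM. Cyp2b10 was thus high in 3 libraries, BL_cisplatin 4 and HP_cisplatin 2 and 3, and at most 1.18 TPM in the other 13. The 3 adipocyte markers Adipoq, Plin1 and Cfd summed to 162 TPM in BL_cisplatin 4, 172 TPM in HP_cisplatin 2 and 8.60 TPM in HP_cisplatin 3. Their sum was also 57.6 TPM in HP_cisplatin 4, 56.9 TPM in CR_cisplatin 4 and 43.0 TPM in BL_vehicle 3, where Cyp2b10 was low, and at most 5.01 TPM elsewhere. Their part in the Cyp2b10 values was not tested.

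Genes that lie next to each other in the genome moved in opposite directions in 3 clusters. Positions are those of GENCODE M21 on the GRCm38 build. On chromosome 4 the 6 Cyp2j genes lie in the order Cyp2j13, Cyp2j7, Cyp2j11, Cyp2j6, Cyp2j9 and Cyp2j5, and only Cyp2j6 (chr4:96516138-96553661) among them was called higher. Further along chromosome 4 come Cyp4a12a, Cyp4a12b, Cyp4a14, Cyp4a10, Cyp4a31, Cyp4a32 and Cyp4b1. In that order the 4 genes from Cyp4a14 to Cyp4a32 rose, while both flanking genes that were called, Cyp4a12a (chr4:115299046-115332815) and Cyp4b1 (chr4:115624725-115647723), fell. Cyp4a32 (chr4:115600969-115621602) ends within a few kilobases of Cyp4b1, which lies on the opposite strand. On chromosome 15 Cyp2d22 rose at one edge of a cluster in which Cyp2d9, Cyp2d12 and Cyp2d26 fell. On chromosome 17 Cyp4f17 and Cyp4f16 rose side by side.

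**Figure D3:**
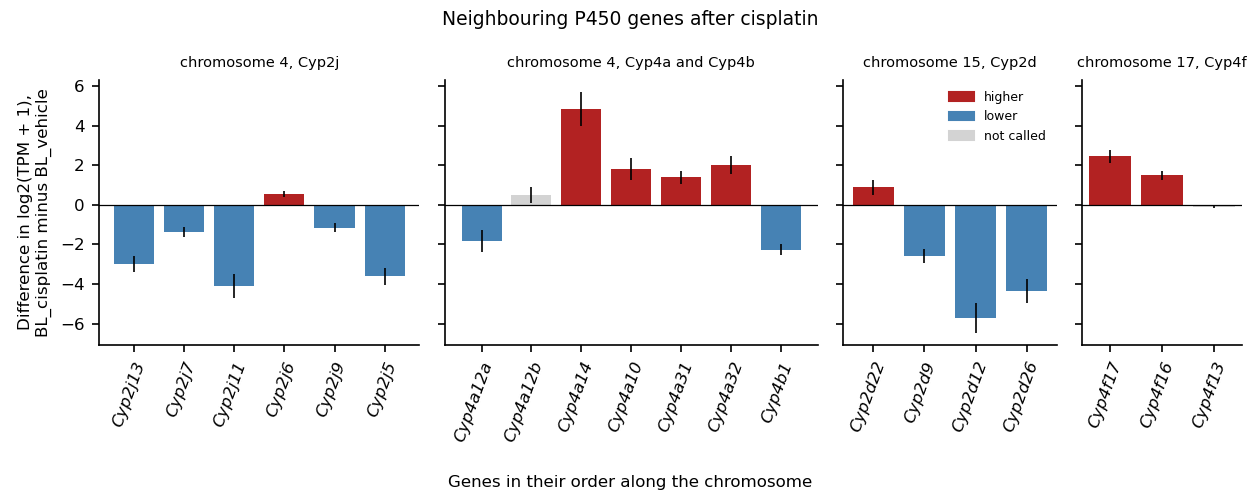
Bars give the log2(TPM + 1) difference of BL_cisplatin minus BL_vehicle (y axis) with its standard error, for P450 genes in their order along chromosomes 4, 15 and 17 (x axis). Red bars are called higher, blue bars lower and grey bars not called, and neighbours such as Cyp4a32 and Cyp4b1 point in opposite directions.

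Promoter sequence was available for 20 of the 31 genes, from RefSeq on GRCm38.p6, as 250 bases before to 50 after the start of transcription. The 5 printed here belong to the neighbours Cyp4a32 and Cyp4b1, which moved apart, and to Cyp2j6, Cyp2j5 and Cyp2a4. Cyp2j6 and Cyp2j5 also moved apart and lie in the same cluster, with Cyp2j9 between them. Cyp2a4 is an abundant gene that fell. They run 5′ to 3′ in the direction of the gene, and capitals mark a match to GTTAAT, a half-site of the liver and kidney factor HNF1, on either strand.
Cyp4a32 (higher, chr4:115600688-115600987, + strand): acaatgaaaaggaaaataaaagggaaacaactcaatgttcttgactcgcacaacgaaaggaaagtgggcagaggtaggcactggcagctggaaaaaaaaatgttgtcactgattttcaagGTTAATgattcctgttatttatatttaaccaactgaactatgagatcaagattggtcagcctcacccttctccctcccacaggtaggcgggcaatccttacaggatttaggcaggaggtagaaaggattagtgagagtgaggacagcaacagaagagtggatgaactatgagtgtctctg
Cyp4b1 (lower, chr4:115647672-115647971, - strand): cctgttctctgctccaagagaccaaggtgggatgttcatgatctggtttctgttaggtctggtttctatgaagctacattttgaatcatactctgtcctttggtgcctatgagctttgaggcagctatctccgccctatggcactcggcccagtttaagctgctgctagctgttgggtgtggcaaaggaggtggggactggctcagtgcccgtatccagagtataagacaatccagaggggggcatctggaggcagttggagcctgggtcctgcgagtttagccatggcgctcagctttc
Cyp2j6 (higher, chr4:96553602-96553901, - strand): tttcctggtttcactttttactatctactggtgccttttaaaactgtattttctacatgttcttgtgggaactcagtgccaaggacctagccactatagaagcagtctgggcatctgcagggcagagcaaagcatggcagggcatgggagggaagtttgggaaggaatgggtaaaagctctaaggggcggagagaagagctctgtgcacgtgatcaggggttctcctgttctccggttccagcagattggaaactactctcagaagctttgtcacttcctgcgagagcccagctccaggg
Cyp2j5 (lower, chr4:96664070-96664369, - strand): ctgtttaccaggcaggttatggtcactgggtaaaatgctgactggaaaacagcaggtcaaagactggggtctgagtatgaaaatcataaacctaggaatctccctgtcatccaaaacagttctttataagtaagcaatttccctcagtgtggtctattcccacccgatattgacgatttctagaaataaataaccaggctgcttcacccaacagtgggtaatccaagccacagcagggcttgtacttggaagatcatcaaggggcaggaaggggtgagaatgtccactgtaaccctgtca
Cyp2a4 (lower, chr7:26306942-26307241, + strand): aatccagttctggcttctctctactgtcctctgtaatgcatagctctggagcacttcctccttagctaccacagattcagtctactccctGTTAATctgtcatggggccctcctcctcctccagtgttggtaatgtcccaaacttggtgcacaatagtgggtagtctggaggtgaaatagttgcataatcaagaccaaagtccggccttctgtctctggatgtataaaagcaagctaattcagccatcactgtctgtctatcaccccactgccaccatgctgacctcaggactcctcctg
The HNF1 half-site was found in 3 of the 10 genes called lower that have a promoter sequence (Cyp2a4, Cyp2a5 and Cyp2d26), in 1 of 7 called higher (Cyp4a32) and in none of 3 not called. It occurs in 7.1% of 32851 promoters of the same length, and these counts are a description with no test. In Cyp2a4 the match starts 160 bases before the start of transcription, and in Cyp4a32 it starts 130 bases before it. The promoters of Cyp2a4 and Cyp2a5 are 97.7% identical, while those of Cyp2j5 and Cyp2j6 are 48.1% identical in a global alignment.

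No other motif searched was found in these windows on either strand. They were the AhR core TNGCGTG (5.07% of all promoters), the HNF4A sequence CAAAGTCCA (0.47%), the half-site AGGTCA repeated with 1 base between as for PPARalpha with RXR (0.04%), and the half-site AGTTCA repeated with 3 or 4 bases between as for PXR and CAR (0% and 0.01%). An absence says only that these letters are not in this window.

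Mice on calorie restriction before cisplatin had far more Cyp4b1, Cyp2e1 and Cyp2j5 and far less Cyp4a14 and Cyp4f17 than mice given cisplatin alone. Against BL_cisplatin, 14 of the 31 genes were called higher and 12 lower in CR_cisplatin, where 29.8% of all genes tested were called higher and 37.4% lower. The called members include Cyp2j7, Cyp3a13 and Cyp4v3, for which the minimum itself set part of the difference. This comparison shares the BL_cisplatin libraries with the one above, so the mirrored directions are not independent of it. The median difference was 0.12 over the 31 genes and -0.08 over all genes. With the most abundant genes left out of the scaling, 3594 of all genes were called higher and 7173 lower against 4480 and 5620, and the median of all genes moved to -0.24.

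In CR_cisplatin 1 to 4 Cyp4b1 read 1269, 868, 1276 and 1038 TPM, against a highest BL_cisplatin library of 267 TPM (log2 difference 2.19, SE 0.30, limma adjusted p = 6.18e-05). Cyp2e1 read 564, 719, 626 and 680.1 TPM, with a mean 25.5-fold that of BL_cisplatin (log2 difference 4.75, SE 0.79). Cyp2j5 read 496, 509, 469.8 and 465 TPM and Cyp2d12 74.5, 78.6, 78.7 and 82.2 TPM. For each of these genes every CR_cisplatin library was above every BL_cisplatin library. Cyp2d12 was called higher by 5.41 and Cyp2j11 by 4.38 on the log2 scale, with Cyp2j11 at 106, 106, 103 and 105 TPM. Cyp2d26 read 43.7, 35.5, 59.4 and 42.7 TPM and was called higher by 4.03 on that scale.

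Of the genes that were lower in CR_cisplatin than in BL_cisplatin, Cyp4a14 showed the largest difference, at 10.8, 8.98, 9.57 and 21.8 TPM (log2 difference -4.16, SE 0.85, limma adjusted p = 6.95e-04). CR_cisplatin 4 was the highest of its group but still under the lowest BL_cisplatin library, 82.4 TPM. Cyp4f17 read 5.27, 4.96, 5.41 and 5.44 TPM and Cyp2s1 2.43, 2.48, 2.58 and 2.55 TPM, with differences of -2.42 and -1.98 on the log2 scale. Cyp4a10 read 58.5, 42.7, 57.2 and 81.1 TPM (log2 difference -2.13, SE 0.55, limma adjusted p = 0.0035), and Cyp4a32 read 1.83, 1.45, 1.99 and 2.31 TPM, a log2 difference of -2.30. The 2 groups were fully separated in each of these genes. The call of Cyp2d22, with CR_cisplatin at 6.66, 6.65, 10.5 and 6.58 TPM, was lost on leaving out BL_cisplatin 1 or 3 or CR_cisplatin 1, 2 or 4. That of Cyp4a12b was lost without BL_cisplatin 1, 2 or 4 or CR_cisplatin 1 or 3. Cyp1b1, Cyp2b10, Cyp2r1, Cyp4a12a and Cyp4f13 were not called. CR_cisplatin 1, the only library of its group that shares the title prefix of BL_cisplatin, read 1269 TPM of Cyp4b1 and 10.8 TPM of Cyp4a14, on the same side as the rest of its group. With the title prefix as a term, 12 members were called higher and 8 lower in this comparison. Among all genes that fit called 2791 higher and 3536 lower. The 6 member calls lost in it were those of Cyp2d22, Cyp2j6, Cyp2j9, Cyp2u1, Cyp4a10 and Cyp4a12b.

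**Figure D4:**
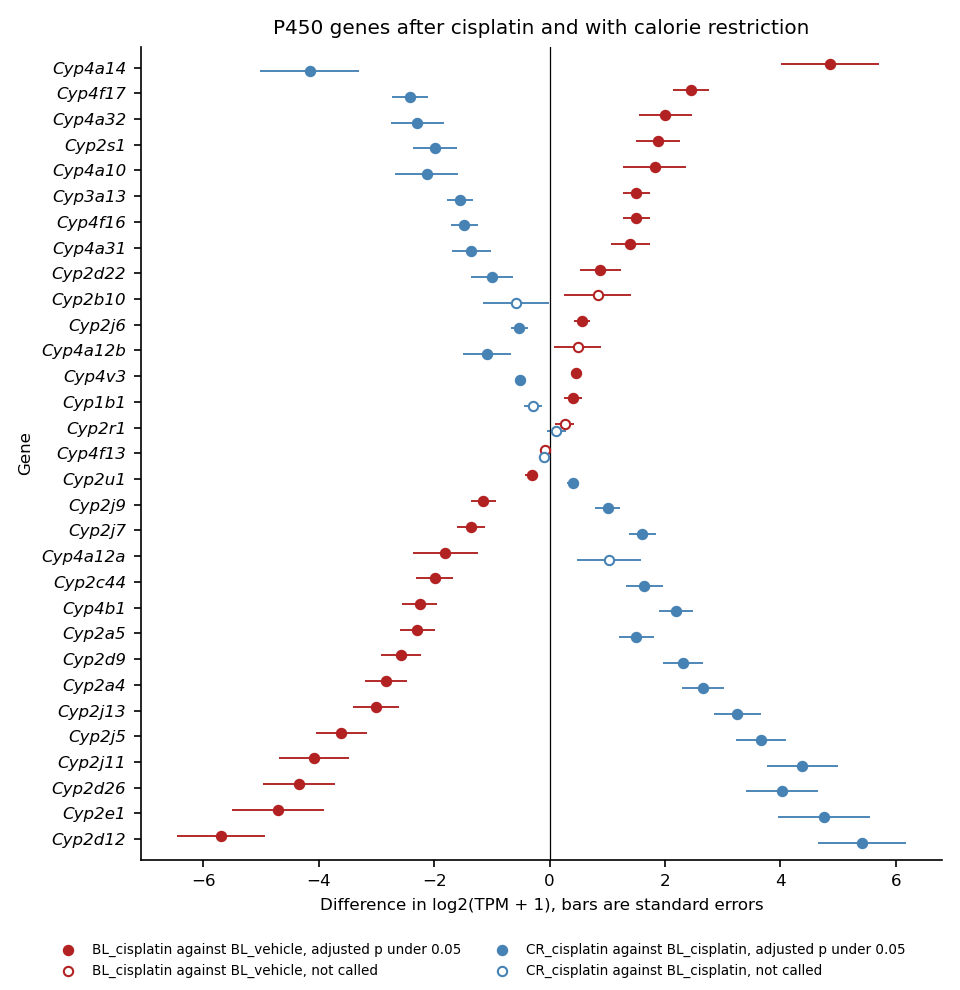
Differences in log2(TPM + 1) (x axis) of the 31 P450 genes (y axis) for BL_cisplatin against BL_vehicle (red) and CR_cisplatin against BL_cisplatin (blue), with standard errors as bars and open points for genes not called. The comparisons share the BL_cisplatin libraries. Cyp2d12 and Cyp2e1 lie at one end and Cyp4a14 at the other.

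Set directly against BL_vehicle, CR_cisplatin had 0 of the 31 genes called in either direction by limma, at a background of 0.0133% of all genes called higher and 0.04% lower. At an unadjusted p under 0.05 there were 3 of the 31 genes (Cyp2a5, Cyp2r1 and Cyp4f13), beside 610 of all 15014 genes tested. Limma on recovered reads with voom weights also called 0 of the 31 genes. Not being called does not show equal levels. A limma fit of these 2 groups alone also called 0 members. It called 49 genes higher and 31 lower among all genes, of which 2091 had an unadjusted p under 0.05. The intervals given next come from the fit of all 16 libraries, so the wide spread within HP_cisplatin also sets their width. The 95% interval of the difference lay within a 2-fold change either way for 17 of the 31 genes, among them Cyp4b1, from -0.69 to 0.57, and Cyp2j5, from -0.88 to 1.00 on the log2 scale. It was wider for Cyp2e1, from -1.66 to 1.74, and for Cyp4a14, from -1.13 to 2.52. The lowest estimate was that of Cyp2a5, which read 36.9, 28.2, 52.4 and 27.8 TPM in CR_cisplatin and 36.7, 62.3, 67.2 and 91.7 TPM in BL_vehicle (log2 difference -0.79, interval -1.43 to -0.15).

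The HP_cisplatin libraries did not form 1 level. Cyp2e1 read 17.6, 335, 82.8 and 681 TPM in HP_cisplatin 1 to 4, a range of 38.8-fold, and Cyp2d12 read 1.38, 28.1, 8.28 and 84.3 TPM, a range of 61.0-fold. HP_cisplatin 1 lay within or just above the BL_cisplatin range for both, HP_cisplatin 4 within or just above the CR_cisplatin range, and HP_cisplatin 2 and 3 between. HP_cisplatin 1 was within the range of the BL_cisplatin libraries for 17 of the 31 genes, and HP_cisplatin 4 within that of the CR_cisplatin libraries for 19. The shares of all genes within these ranges were not counted. Cyp4b1 read 294, 477, 325 and 1017 TPM and Cyp2j5 66.7, 294, 225 and 466 TPM in the same order of libraries. Cyp2d26 read 2.36, 60.4, 14.6 and 42.1 TPM and Cyp2j11 4.96, 55.5, 32.7 and 103 TPM, with HP_cisplatin 2 above HP_cisplatin 3 in both.

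On a scale where 0 is the BL_vehicle mean and 1 the BL_cisplatin mean of log2(TPM + 1), the 14 genes that fell over 2-fold after cisplatin had median positions of 0.94, 0.19, 0.51 and 0.10 in HP_cisplatin 1 to 4. The 8 genes that rose over 2-fold had medians of 1.07, 0.98, 1.23 and 0.03. In HP_cisplatin 2 and 3 the median of the genes that fall thus lay nearer the vehicle level than that of the genes that rise, but the rising genes were not alike: the 4 Cyp4a genes among them were above 1 in both libraries and others below it. The choice of these genes used the 2 groups that define the scale, so the positions are a description with no test. In HP_cisplatin 2 the rising genes Cyp3a13 (position 0.23), Cyp4f17 (0.56), Cyp4f16 (0.61) and Cyp2s1 (0.76) were below 1, while Cyp4a10 (1.73) and Cyp4a31 (1.44) were highest. In HP_cisplatin 3 Cyp3a13 (0.66), Cyp4f17 (0.80) and Cyp4f16 (0.98) were below 1 and Cyp2s1 (1.31) above it.

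**Figure D5:**
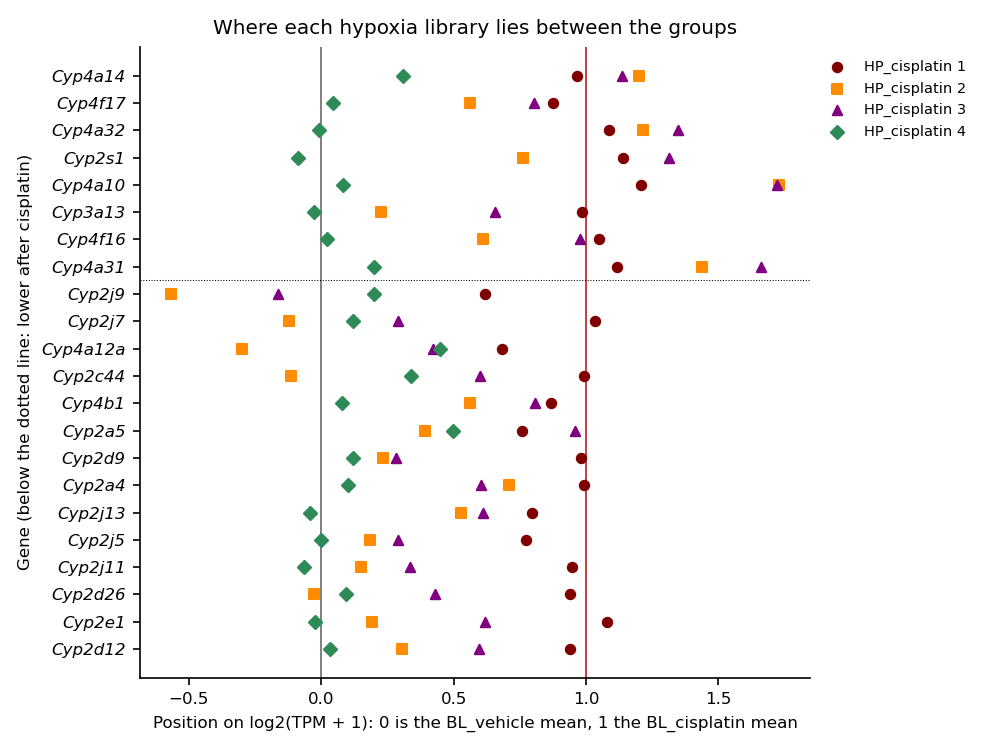
Position of each HP_cisplatin library (symbols) on the log2(TPM + 1) scale, where 0 is the BL_vehicle mean and 1 the BL_cisplatin mean (x axis), for 22 genes changed over 2-fold by cisplatin (y axis). HP_cisplatin 1 lies near 1 and HP_cisplatin 4 near 0, and HP_cisplatin 2 and 3 reach beyond 1 for Cyp4a genes and Cyp4a10 reaches 1.73.

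In 3 of the 6 Cyp4a genes, Cyp4a10, Cyp4a31 and Cyp4a32, HP_cisplatin 2 and 3 were the 2 highest of the 16 libraries. Cyp4a10 read 336, 653, 646 and 80.6 TPM in HP_cisplatin 1 to 4, against a highest value of 323 TPM in the other 3 groups. Cyp4a31 read 139, 189.5, 235 and 56.4 TPM, against at most 148 TPM, and Cyp4a32 read 14.9, 18.02, 21.9 and 2.47 TPM, against at most 17.3 TPM. HP_cisplatin 2 and 3 were above all 12 libraries of the other groups for these 3 genes and also for Cyp2d22 and Cyp4f13. The share of all genes for which this held was not counted, so these members have no background beside them. Cyp2d22 read 18.6, 30.3, 34.2 and 6.32 TPM, against a vehicle mean of 8.23 TPM. Cyp4a14 read 206, 452, 368 and 21.7 TPM, with HP_cisplatin 2 above every other library and HP_cisplatin 3 under BL_cisplatin 1. For Cyp4a12a BL_vehicle 4 was above both, and for Cyp4a12b HP_cisplatin 3, at 16.05 TPM, was under HP_cisplatin 1, at 17.5 TPM. Summed over Cyp4a, HP_cisplatin 1 to 4 held 718, 1350, 1294 and 173 TPM. Beside this, the summed proximal tubule markers of HP_cisplatin 2 and 3, 2921 and 1672 TPM, lay between the levels of BL_cisplatin and BL_vehicle, and Havcr1, the injury marker, read 582, 51.0, 409 and 0.473 TPM in HP_cisplatin 1 to 4. The part of these in the Cyp4a values was not tested.

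In the test over the group as a whole, 12 of the 31 genes were called higher and 2 lower in HP_cisplatin than in BL_cisplatin, where 16.4% of all genes were called higher and 13.1% lower. This fit shares 1 estimate of spread over the 4 groups, although the SD of Cyp2e1 was 301 TPM in HP_cisplatin and 14.7 TPM in BL_cisplatin. For genes that spread most in HP_cisplatin, its p-values understate that spread, here and against BL_vehicle. The genes called higher were Cyp2j5 (log2 difference 2.49, SE 0.44, limma adjusted p = 0.0047), Cyp2j9, Cyp2d26, Cyp2d9, Cyp2j11, Cyp2d12, Cyp2j13, Cyp2j7, Cyp2c44, Cyp4b1, Cyp2e1 and Cyp2a4. The groups overlapped in 7 of these 12, and did not in Cyp2j9, Cyp2d26, Cyp2d12, Cyp2j13 and Cyp4b1. Overlap was not counted over all genes, so this count has no background. The 2 called lower were Cyp4f17, at 26.05, 14.9, 23.01 and 5.59 TPM (log2 difference -1.05, SE 0.31, limma adjusted p = 0.0235), and Cyp3a13, at 2.20, 0.451, 1.27 and 0.112 TPM. Cyp3a13 met the minimum only through BL_cisplatin and HP_cisplatin libraries, and Cyp2j7 was under 1 TPM in every BL_cisplatin library. Part of both differences was thus set by the minimum itself. Without HP_cisplatin 4, 11 were called higher and 2 lower, with the calls of Cyp2c44 and Cyp2e1 lost and that of Cyp2d22 gained. Among all genes 1834 were then called higher and 1049 lower. In a limma fit of these 2 groups alone 0 members were called in either direction, as were 0 of all genes, of which 4273 had an unadjusted p under 0.05. With the title prefix as a term limma also called 0, with 1564 genes at an unadjusted p under 0.05. Leaving the most abundant genes out of the scaling gave 1902 higher and 4007 lower among all genes in place of 2455 and 1965, and moved their median from -0.02 to -0.14.

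Against BL_vehicle, 10 of the 31 genes were called higher and 7 lower in HP_cisplatin, at a background of 19.2% higher and 10.1% lower. Those called higher were Cyp4a10, Cyp4a14, Cyp4a31, Cyp4a32, Cyp4f16, Cyp4f17, Cyp2s1, Cyp2d22, Cyp2j6 and Cyp3a13, and the groups overlapped in each through HP_cisplatin 4. Cyp3a13 was under 1 TPM in every BL_vehicle library, so the minimum itself set part of its difference here too. Cyp4a14 differed most (log2 difference 4.39, SE 0.85, limma adjusted p = 0.0095). Those called lower were Cyp2a4, Cyp2a5, Cyp4b1, Cyp2d9, Cyp2d12, Cyp2j13 and Cyp2c44, without overlap in the first 4. Here too overlap was not counted over all genes. Cyp2a5 read 17.7, 32.4, 12.6 and 27.2 TPM and Cyp2j13 11.98, 21.7, 18.2 and 73.8 TPM in HP_cisplatin 1 to 4. Cyp2s1, among the genes called higher, read 15.7, 9.21, 19.9 and 2.36 TPM. Cyp2a4 read 40.9, 71.7, 88.8 and 241 TPM, with HP_cisplatin 4 just under the lowest vehicle library (log2 difference -1.70, SE 0.36, limma adjusted p = 0.0116). Without HP_cisplatin 4, 13 genes were called higher and 11 lower, without HP_cisplatin 3 the counts were 3 and 2, and without HP_cisplatin 1 they were 6 and 5. The counts over all genes moved alike, from 2889 higher and 1509 lower to 5024 and 2685, to 460 and 232, and to 1294 and 617 in the same order. Without BL_vehicle 2 or 4 the lower count of members was 4, with 718 and 877 lower among all genes. In a limma fit of the 2 groups alone 0 members were called, with 7 genes higher and 4 lower among all genes, of which 4559 had an unadjusted p under 0.05.

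The genes that serve P450 enzymes were examined through lists of related genes. Por, the reductase that feeds electrons to all microsomal P450 enzymes, read 77.1, 77.6, 79.1 and 91.0 TPM in BL_vehicle 1 to 4 and 80.3, 85.3, 85.7 and 76.4 TPM in BL_cisplatin 1 to 4. The groups overlapped, and Por was not called (log2 difference 0.01). Of 16 electron partners and haem synthesis genes, 2 were called higher and 9 lower after cisplatin, with a median of -0.34, where 38.0% of all genes were called higher and 28.8% lower and the median of all genes was 0.08. The same shares apply to the cisplatin counts of the lists that follow. Among the lowest adjusted p-values were cytochrome b5 (Cyb5a, log2 difference -1.04) and the haem synthesis enzymes Cpox (-0.63) and Urod (-0.61). Hmox1, which breaks haem down, rose by 2.97. In CR_cisplatin against BL_cisplatin 9 of the 16 were called higher and 2 lower, against 29.8% and 37.4% of all genes, and 0 were called against BL_vehicle.

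Of 21 receptors and factors known to act on P450 genes, 19 could be tested, and 5 were called higher and 9 lower after cisplatin, against 38.0% and 28.8% of all genes. Hnf4a, a nuclear receptor of proximal tubule and liver, read 182, 200, 175 and 197 TPM in BL_vehicle and 52.0, 36.8, 46.9 and 49.4 TPM in BL_cisplatin. The groups were far apart (log2 difference -2.01, limma adjusted p = 4.18e-05), and CR_cisplatin was at 159 to 182 TPM. The circadian output factors Dbp, Tef and Hlf, which drive P450 genes in liver and kidney, fell by 2.08, 1.80 and 2.97 on the log2 scale. Dbp was also lower in CR_cisplatin than in BL_vehicle (log2 difference -1.90, limma adjusted p = 3.39e-04), the 1 call of these lists in that comparison. The harvest hour is not given in the labels. Nr1i2, the drug receptor PXR, rose by 0.78 from 1.37 to 3.12 TPM and Ahr by 0.32 from 1.75 to 2.46 TPM. Ppara read 27.7 to 32.2 TPM in BL_vehicle and 29.4 to 40.2 TPM in BL_cisplatin and was not called. Nr1i3 (CAR) did not reach the minimum.

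Among 22 tested PPARalpha targets outside the P450 genes, 10 were called higher and 4 lower after cisplatin, with a median of 0.39. The share called higher was near the 38.0% of all genes, and the share called lower was under their 28.8%. The kinase Pdk4 rose by 4.59, the lipid droplet protein Plin2 by 4.01 and the thioesterase Acot2 by 1.99 on the log2 scale. Acadm, a fatty acid dehydrogenase, fell by 1.88. In CR_cisplatin against BL_cisplatin 4 were called higher and 12 lower, against 29.8% and 37.4% of all genes. In HP_cisplatin against BL_vehicle 12 were called higher and 1 lower, against 19.2% and 10.1%. The count of this list was not repeated without HP_cisplatin 4. A limma fit of those 2 groups alone called only 7 genes higher and 4 lower among all genes. Of the 6 AhR targets listed, 4 were tested and 3 were called higher after cisplatin: Tiparp, Gsta1 and Nqo1. Cyp1a1, the gene most closely tied to AhR, was under the minimum, at 0.287 to 0.540 TPM in BL_vehicle and 0.102 to 0.272 TPM in BL_cisplatin.

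Of 15 tested genes that make or break down arachidonic acid products outside the P450 genes, 5 were called higher and 7 lower. The share called higher was near the 38.0% of all genes, and the share called lower was above their 28.8%. Ephx2, the hydrolase that removes epoxides made by Cyp2c and Cyp2j enzymes, read 155 to 210.0 TPM in BL_vehicle and 94.1 to 124 TPM in BL_cisplatin (log2 difference -0.73, limma adjusted p = 2.95e-04). Prostacyclin synthase (Ptgis) fell by 0.88, Hpgd by 1.36 and Ptgds by 1.44 on the log2 scale, and Ptges rose by 1.00. Of 20 P450 genes of higher families listed, 9 were tested, and 1 was called higher (Cyp26b1, which degrades retinoic acid) and 4 lower. Cyp7b1, an oxysterol hydroxylase, read 76.2 to 100.2 TPM in BL_vehicle and 9.11 to 22.01 TPM in BL_cisplatin, a log2 difference of -2.75. Cyp27a1 fell by 1.16 and Tbxas1 by 1.14. Ptgis and Tbxas1 stand in both of these lists.

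Markers of other cells and tissues were followed beside the P450 genes, and several of other tubule segments also fell after cisplatin. The 4 thick ascending limb markers summed to 1325 to 2317 TPM in BL_vehicle and 165 to 448 TPM in BL_cisplatin, and all 4 were called lower. The 3 markers of the distal convoluted tubule summed to 272 to 292 TPM and 10.8 to 17.6 TPM, and all 3 were called lower. Of the 4 markers each of collecting duct principal cells and intercalated cells, 2 were called lower and 0 higher. Red blood cell markers summed to 13.5 to 21.8 TPM in BL_vehicle and 0.315 to 1.18 TPM in BL_cisplatin, and both of those tested were lower. Liver and adrenal gland are also rich in P450 enzymes. The hepatocyte gene Tat reached at most 0.0790 TPM and albumin at most 3.55 TPM. The 4 adrenal cortex markers, none of which reached the minimum, summed to 0.516 to 0.690 TPM in BL_vehicle and 1.07 to 1.40 TPM in BL_cisplatin without overlap, mostly through Star, with Cyp11b1 listed at 0 in all libraries. The 5 hepatocyte markers summed to 79.2 to 115 TPM in BL_vehicle and 43.4 to 74.7 TPM in BL_cisplatin, with Ttr and Serpina1a making up most of it, and of the 4 tested 3 were lower and 1 higher. The 4 macrophage markers summed to 24.1 to 30.8 TPM in BL_vehicle and 63.8 to 78.0 TPM in BL_cisplatin, through Cd68, and 1 of them was higher and 2 were lower. The 3 neutrophil markers summed to 0.334 to 0.548 TPM and 4.50 to 7.14 TPM. Their part in the P450 values was not tested.

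Of the 51 genes under the minimum, 49 reached 1 TPM in no library, 41 had a mean under 0.1 TPM and 8 were listed at 0 throughout. Just under the minimum were Cyp2f2, which reached 1 TPM in 2 libraries, and Cyp2j8, which reached it in 1. Just above it were Cyp2b10 with 4 libraries, Cyp3a13 with 6, Cyp2r1 with 7 and Cyp4v3 with 8.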

How the data were processed

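RNA-seq of 16 mouse kidney libraries in 4 groups of 4 was analysed from 1 deposited table of TPM values per gene. Reads had been aligned with STAR 2.5 and counted with featureCounts of Subread 1.5 on mm10 (GRCm38), per the submitters' processing notes, and the authors deposited TPM. The unit was read from the values, since no header names it. Whole reads were recovered from them for 24571 of 32198 genes (76.3%, within 0.0001 read of a whole number) with GENCODE M21 exon lengths and for 7626 more with a searched length. Whether counting used strand is not given in the sources used here.

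The 15014 genes that reached 1 TPM in 4 or more libraries were tested on log2(TPM + 1), which understates changes of low genes, with limma 3.58.1 (trend and robust, statmod 1.5.0, R 4.3.3) in 1 fit of all 16 libraries. P-values were 2-sided and Benjamini-Hochberg adjusted, with a threshold of 0.05, and the procedure was tested on simulated data. The pseudocount, minimum, scaling, samples fitted, title prefix, voom on recovered reads and leaving out each library were varied.

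The members and gene lists were chosen with earlier results of these data known. Values per library are given for the most abundant member of each subfamily and for the 5 largest rises and falls of each comparison. Of each pathway list up to 4 genes of smallest adjusted p were named, plus Por, Ahr, Ppara, Hnf4a, Nr1i2, Nr1i3 and Ephx2. Shared sequence was measured as windows of 50 bases of the longest transcript found in another P450 gene, and promoter identity by global alignment. A table of protein sequences was not used here.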

Additional observations from a re-analysis of the deposited data

Results flagged for a closer look

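In 10 of 124 sets of 4 libraries (a gene in a group) 1 library stood apart from the other 3, with a gap over range above Dixon's critical value for 4 values. Chance gives about 1 in 20, or 6.2 sets. In BL_vehicle, Cyp2b10 read 1.18 TPM in library 4 against a next value of 0.238 TPM, Cyp2c44 read 7.79 TPM in library 3 against 7.39 TPM, and Cyp2d12 read 207 TPM in library 2 against 87.8 TPM. In BL_cisplatin 4, Cyp2b10 read 7.67 TPM against 0.842 TPM and Cyp2e1 47.4 TPM against 19.2 TPM. In CR_cisplatin, Cyp2d22 read 10.5 TPM in library 3 against 6.66 TPM and Cyp4a14 21.8 TPM in library 4 against 10.8 TPM. In HP_cisplatin 2, Cyp1b1 read 9.89 TPM against 6.72 TPM and Cyp4a12a 18.2 TPM against 6.77 TPM. In HP_cisplatin 4, Cyp2j13 read 73.8 TPM against 21.7 TPM.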

How the results depend on the processing

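Leaving out each library in turn gave 10 to 11 members called higher (12 with all libraries) and 14 to 15 lower (15) for BL_cisplatin against BL_vehicle, and 14 higher each time (14) and 10 to 11 lower (12) for CR_cisplatin against BL_cisplatin. CR_cisplatin against BL_vehicle gave 0 under every alternative run. For HP_cisplatin against BL_cisplatin the range was 8 to 13 higher (12) and 0 to 3 lower (2), with 0 lower without HP_cisplatin 2 and 1 lower without BL_cisplatin 1, 2 or 3. For HP_cisplatin against BL_vehicle it was 3 to 13 higher (10) and 2 to 11 lower (7). The counts over all genes also varied widely in these fits. They were 1313 to 3658 higher and 897 to 3498 lower against BL_cisplatin, and 460 to 5024 higher and 232 to 2685 lower against BL_vehicle. The title prefix as a term gave 4 higher for BL_cisplatin against BL_vehicle, and 0 higher and 0 lower for HP_cisplatin against BL_cisplatin. Over all genes it gave 1929 higher and 1484 lower in the former comparison and 0 in either direction in the latter. Fitting only the groups compared gave 0 higher and 0 lower in both HP_cisplatin comparisons. A minimum of 5 TPM gave 1 lower for HP_cisplatin against BL_cisplatin, with 25 members tested. Apart from what these alternatives do to the number of samples or genes, the cause was not tested. No called member changed sign under any alternative run. Among uncalled members, the log2 difference changed sign in some alternatives, none of them with a call before or after. With the title prefix as a term it went from -0.201 to 0.0957 for Cyp1b1 in HP_cisplatin against BL_cisplatin, 0.118 to -0.128 for Cyp2r1 in CR_cisplatin against BL_cisplatin, 0.308 to -0.268 for Cyp4a12b in HP_cisplatin against BL_cisplatin, 0.146 to -0.024 for Cyp4a31 in HP_cisplatin against BL_cisplatin, -0.0801 to 0.0446 for Cyp4f13 in BL_cisplatin against BL_vehicle and 0.114 to -0.0112 for Cyp4f13 in HP_cisplatin against BL_cisplatin. With voom on recovered reads it went from -0.0241 to 0.0358 for Cyp2j9 in HP_cisplatin against BL_vehicle and -0.0801 to 0.038 for Cyp4f13 in BL_cisplatin against BL_vehicle. With rescaling it went from -0.0801 to 0.0622 for Cyp4f13 in BL_cisplatin against BL_vehicle. With libraries left out in turn, the range in CR_cisplatin against BL_cisplatin was -0.821 to 0.0141 for Cyp2b10 (changing without BL_cisplatin 4). With libraries left out in turn, the range in CR_cisplatin against BL_vehicle was -0.47 to 0.0795 for Cyp2d12 (changing without BL_vehicle 2), -0.0903 to 0.267 for Cyp2e1 (changing without CR_cisplatin 2 or BL_vehicle 1 or BL_vehicle 3), -0.0947 to 0.145 for Cyp4a31 (changing without CR_cisplatin 4 or BL_vehicle 4), -0.133 to 0.0519 for Cyp4b1 (changing without CR_cisplatin 2) and -0.0142 to 0.06 for Cyp4f16 (changing without CR_cisplatin 3 or BL_vehicle 4). With libraries left out in turn, the range in HP_cisplatin against BL_cisplatin was -0.0371 to 0.718 for Cyp2d22 (changing without HP_cisplatin 3), -0.208 to 0.0824 for Cyp2j6 (changing without HP_cisplatin 4), -0.137 to 0.113 for Cyp2r1 (changing without BL_cisplatin 4 or HP_cisplatin 2 or HP_cisplatin 3), -0.741 to 0.137 for Cyp2s1 (changing without HP_cisplatin 4), -0.961 to 0.491 for Cyp4a14 (changing without HP_cisplatin 4), -0.113 to 0.567 for Cyp4a31 (changing without HP_cisplatin 2 or HP_cisplatin 3) and -0.474 to 0.433 for Cyp4a32 (changing without HP_cisplatin 4). With libraries left out in turn, the range in HP_cisplatin against BL_vehicle was -0.25 to 0.205 for Cyp2j9 (changing without BL_vehicle 4 or HP_cisplatin 1 or HP_cisplatin 4), -1.05 to 0.0817 for Cyp4a12a (changing without BL_vehicle 4) and -0.0233 to 0.105 for Cyp4f13 (changing without HP_cisplatin 2 or HP_cisplatin 3). No paired analysis was possible because the labels number no replicates. Depth limits the genes near 1 TPM, such as Cyp2b10, Cyp2r1 and Cyp3a13.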

Other observations

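Pseudogenes named after P450 genes of families 1 to 4 were left out of the members, and 5 of them reached 1 TPM in at least 4 libraries. Cyp4b1-ps1 had a mean of 4.13 TPM in BL_vehicle, 0.804 TPM in BL_cisplatin, 4.34 TPM in CR_cisplatin and 1.82 TPM in HP_cisplatin. Cyp2j15-ps had means of 2.37, 0.140, 2.70 and 1.48 TPM in the same groups. Cyp2j7-ps1, Cyp2j7-ps2 and Cyp4b1-ps2 were at 0.719, 0.944 and 1.07 TPM in BL_vehicle and at 0.0386, 0.0730 and 0.328 TPM in BL_cisplatin. Cyp4b1 shares 5.26% of its windows of 50 bases with Cyp4b1-ps2, so reads of the gene and its pseudogenes could be split in counting.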
